A study of Mus musculus with 20 samples.

Results

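Metallothionein and iron-handling transcripts were followed in 20 single cells of the mouse inner cell mass. The 10 genes were the metallothioneins Mt1 and Mt2, the zinc sensor Mtf1, the zinc exporter Slc30a1, the iron importers Tfrc and Slc11a2, the ferritin chains Fth1 and Ftl1, the iron sensor Ireb2 and the heme oxygenase Hmox1. Mt1 and Tfrc were chosen by their large variance over these same cells, and the other 8 genes because they belong to the same pathways, so the spreads of Mt1 and Tfrc are given as a description. Of the 10 genes, 9 had a probe set of their own among the 18193 genes measured. Each cell came from a C57BL/6 blastocyst at embryonic day 3.5, and all 20 cells formed 1 untreated group. Per the series design, 55 cells were picked after trypsin dissociation, and 50 of them were kept as inner cell mass by a PCR screen for Oct4 and against Cdx2. No label ties a cell to an embryo, and a cell's number here is its replicate number. The question was whether Mt1 and Tfrc, which differed strongly between cells, did so together with their pathway partners.

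Metallothioneins are small cysteine-rich proteins that bind zinc and copper. In mouse cells, free zinc activates the transcription factor encoded by Mtf1, which binds metal response elements in the promoters of Mt1, Mt2 and Slc30a1. Cellular iron is controlled mainly after transcription. When iron is scarce, the iron regulatory proteins, one of them encoded by Ireb2, bind iron-responsive elements. This protects the Tfrc transcript, which encodes the transferrin receptor, and blocks translation of the ferritin transcripts, so that ferritin can change at the protein with no change in its transcript.

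Levels are log2(intensity + 8.75) after quantile normalization, where 3.29 is the lowest value possible. The floor of an array, the 95th percentile of 183 probe sets of receptor and tissue genes foreign to the blastocyst, lay between 6.76 and 7.65, and a gene was called above the floor in a cell when it exceeded the floor of that array. Each gene was read from its brightest probe set, and levels of different genes are not compared, since probe sets differ in how well they bind. Over the arrays, 21.7% to 28.5% of probe sets lay above the floor. The deposited median intensity was 25.6 to 30.2 in all cells but cell 19, where it was lower. The screened gene Pou5f1 (Oct4) was above the floor in all 20 cells. Cdx2, against which the cells were screened, lay beside the floor, at 7.37 ± 0.44 in epiblast-like cells and 7.48 ± 0.25 in primitive endoderm-like cells (SD, n = 10 each, clusters as given below), and exceeded it in 8 and 7 cells. The 6 red blood cell genes and the 4 genes of visceral endoderm and liver that were on the array, cell types with heavy iron or transport protein expression, were above the floor in 0 cells. Clustering on 500 variable genes, without the 10 genes, related metal genes or lineage markers, gave an epiblast-like cluster of 10 cells (cells 1, 2, 7, 9, 12, 13, 14, 16, 18 and 19) led by Fgf4, with Klf2 among its 10 leading genes, and a primitive endoderm-like cluster of 10 cells with Cubn, Sox17, Pdgfra and Gata4 in the lead. Epiblast and primitive endoderm are the lineages into which the inner cell mass divides. All 11 tested epiblast markers were higher in the epiblast-like cells, 7 of them by at least 1 log2 unit. Of the 14 tested primitive endoderm markers, 12 were lower there by at least 1 log2 unit. The other 2 were higher there, 1 of them by at least 1 log2 unit. The primitive endoderm markers Dab2 and Sox7 were above the floor in 0 cells. No test was made between the clusters, and with 1000 genes cell 16 changed sides.

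Of the 9 genes, 8 were above the floor in at least 3 cells and were tested, where the share over all genes was 51.6%. Of these 8 genes, 5 had an SD over cells of at least 1 log2 unit (Mt1, Mt2, Slc30a1, Tfrc and Slc11a2). The share over all 9391 tested genes was 55.1%. The other 3 (Mtf1, Fth1 and Ireb2) were above the floor in every cell. The limma variance test called 0 of the 8 genes and 0% of the 9391 genes at an adjusted p under 0.05, and the smallest adjusted p was 0.739. At an unadjusted p under 0.05 it called 27 of the 9391 genes, 1 of which was among the 8 (Tfrc). Tfrc was chosen by its variance over these same cells, so this call is a description. With 14.4 times the variance of genes of like level, Mt1 had an unadjusted p of 0.0504 in this test. A test this weak could hardly call a gene, so its 0 calls are no result about these 8 genes.

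**Figure D1:**
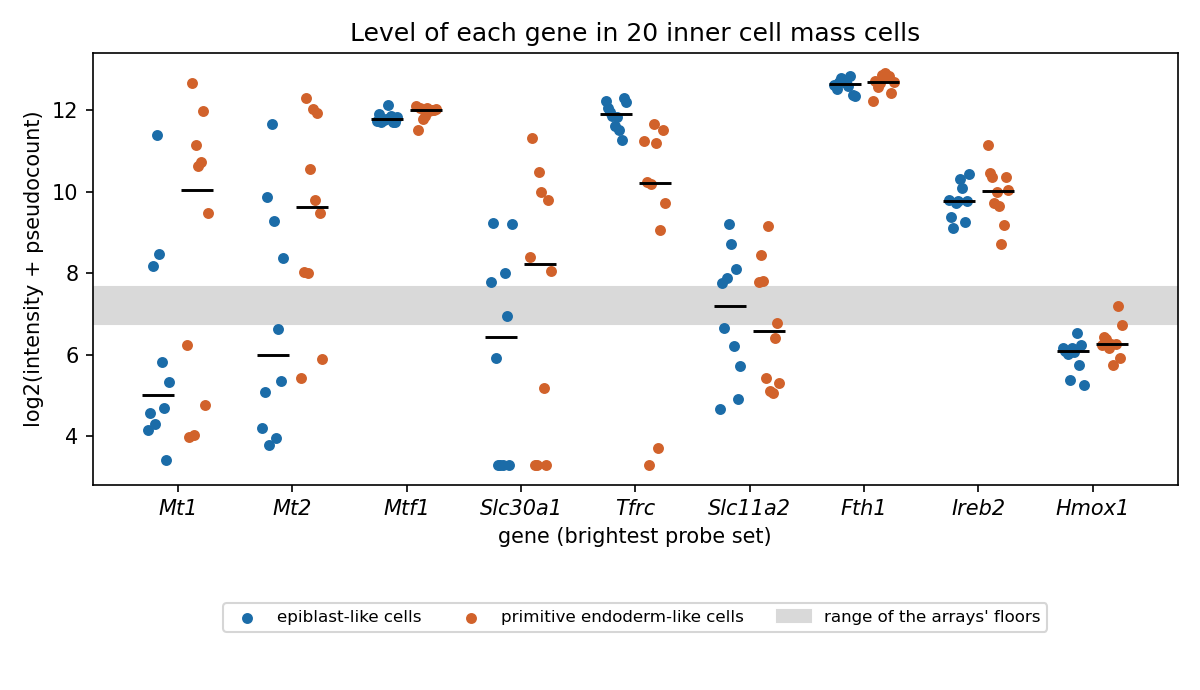
Level of the 9 genes (log2(intensity + pseudocount), vertical axis) in each cell, with the 10 epiblast-like cells left of the 10 primitive endoderm-like cells in each gene, a black line at each cluster's median and a grey band for the range of the arrays' floors. Mt1, Mt2 and Slc30a1 spread from below the floor to over 11, Tfrc was high in 18 cells and at the bottom of the scale in 2, and Mtf1 and Fth1 stayed within 1 log2 unit.

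The promoters of the zinc-responsive genes are shown because the core of the metal response element, the sequence that the Mtf1 protein reads, is what Mt1, Mt2 and Slc30a1 are known to share. The windows are the 250 bases before each start on the plus strand, from RefSeq (GRCm38.p6), at chr8:94178839-94179088 for Mt1, chr8:94172368-94172617 for Mt2 and chr1:191906531-191906780 for Slc30a1. Capitals mark a core, TGCACNC or TGCGCNC, searched on both strands.
Mt1: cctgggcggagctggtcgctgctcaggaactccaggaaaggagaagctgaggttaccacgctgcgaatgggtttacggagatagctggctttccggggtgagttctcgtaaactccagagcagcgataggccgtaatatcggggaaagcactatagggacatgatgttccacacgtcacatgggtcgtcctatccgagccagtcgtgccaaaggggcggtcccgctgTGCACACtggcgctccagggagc
Mt2: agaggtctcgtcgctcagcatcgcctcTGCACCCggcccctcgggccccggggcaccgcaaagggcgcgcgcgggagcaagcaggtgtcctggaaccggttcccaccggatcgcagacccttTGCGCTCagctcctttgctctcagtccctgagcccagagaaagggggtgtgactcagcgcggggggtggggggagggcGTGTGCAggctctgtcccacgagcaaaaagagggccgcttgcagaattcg
Slc30a1: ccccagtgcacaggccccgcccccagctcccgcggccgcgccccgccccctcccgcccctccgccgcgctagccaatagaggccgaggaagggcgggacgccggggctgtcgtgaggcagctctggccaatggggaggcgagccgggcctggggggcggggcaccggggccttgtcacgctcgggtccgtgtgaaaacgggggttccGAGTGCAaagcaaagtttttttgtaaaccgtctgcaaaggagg
Mt2 held 3 cores in these 250 bases, and 1.26% of the 32851 mouse windows of that length held at least 3. Mt1 held 1 core, 23 bases before its start, and Slc30a1 held 1 core, on the minus strand. At least 1 core was present in 21.4% of all windows. With the 50 bases after the start included, Mt1 held 3 cores, Mt2 4 and Slc30a1 2, where 1.97% of all windows held at least 3. The counts, that of Mt1 most of all, thus depend on the annotated start and on where the window ends. Of the 10 genes, 8 had a window in the table. Tfrc had 2 cores, which overlap each other, in 1 of its 2 windows, and Mtf1, Fth1, Ftl1 and Ireb2 had 0. A match of these letters is a description and not a binding site.

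Mt1, the first metallothionein, had a level of 3.42 at the lowest (cell 18), 6.02 at the median and 12.68 at the highest (cell 5). It was above the floor in 9 cells (5, 7, 8, 10, 11, 12, 13, 15 and 20) and not in the other 11. The SD was 3.21, rank 15 of the 9391 tested genes, and cell 5 reached 43.8 times the floor of its own array. A second Mt1 probe set followed the first closely, with r = 0.98 and Spearman's rho = 0.84 over the 20 cells, and was above the floor in 8 of the same 9 cells, without cell 7.

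Mt2, the second metallothionein, was at 3.79 at the lowest (cell 9), 8.19 at the median and 12.30 at the highest (cell 5). It was above the floor in 12 cells, 8 of them among the 9 cells with Mt1. The highest cell was the same for both genes. In the 9 cells with Mt1 above the floor, Mt2 was 5.89 at the lowest, 10.56 at the median and 12.30 at the highest. In the 11 cells without, Mt2 was 3.79 at the lowest, 5.42 at the median and 9.47 at the highest, so the ranges overlapped. Cells 4, 6, 17 and 19 had Mt2 without Mt1, cell 20 had Mt1 (9.48) without Mt2 (5.89), and 7 cells had neither. Mt1 and Mt2 are close relatives in sequence. How far each probe set also binds the other's transcript was not tested beyond these cells, in which only 1 of the probe sets was above the floor.

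Over the 20 cells the levels of Mt1 and Mt2 correlated with r = 0.77 and rho = 0.75. With the second Mt1 probe set r was 0.78 and rho was 0.75. The points share the cell, its array and its amplification, as do all correlations here, which are descriptions over cells. Among 9390 tested genes, Mt2 had the 4th highest rho with Mt1, where the 5th to 95th percentile ran from -0.42 to 0.39. With 1 cell left out at a time rho was 0.70 to 0.79, and without the 2 cells farthest from the Mt1 median r was 0.69. Within the epiblast-like cells rho was 0.70, and within the primitive endoderm-like cells it was 0.73 (10 cells each). Within the 9 cells with Mt1 above the floor rho was 0.70, and within the 11 others it was 0.05, where Mt1 lay in the range of background.

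**Figure D2:**
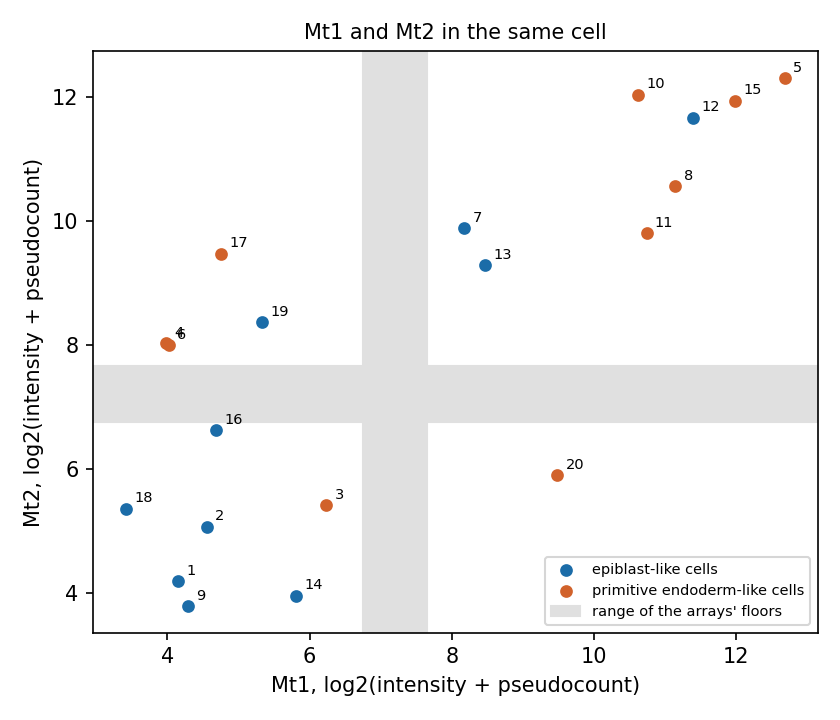
Level of Mt2 (vertical axis) against that of Mt1 (horizontal axis), both log2(intensity + pseudocount), in 20 numbered cells, epiblast-like cells in blue and primitive endoderm-like cells in orange, with grey bands for the range of the arrays' floors. The 8 cells with both genes lie at the upper right, 4 cells have Mt2 only, and cell 20 has Mt1 only.

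Mtf1, the zinc-sensing activator, differed little between cells by its brightest probe set. Its level there was 11.53 at the lowest (cell 4), 11.86 at the median and 12.13 at the highest (cell 13), with an SD of 0.16, against 0.84 with the mean of its 5 probe sets. Leaving out cell 4, which stood apart, its level correlated with that of Mt1 with r = 0.51 and rho = 0.58 over 19 cells, rank 80 of 9390 genes. Within the epiblast-like cells rho was 0.43, and within the primitive endoderm-like cells, cell 4 included, it was 0.39 (10 cells each). Its 4 other probe sets were above the floor in 11, 8, 7 and 1 cells, and their rho with Mt1 ran from -0.22 to 0.12, so the relation was seen with the brightest probe set and with no other.

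Slc30a1, which carries zinc out of the cell, was at 3.29 at the lowest, 7.37 at the median and 11.32 at the highest (cell 4). It was above the floor in 11 cells, with an SD of 2.91. Its level did not follow that of Mt1 (r = -0.21, rho = -0.13, 20 cells) or Mt2 (rho = -0.03). By the brightest probe sets, Mt1 and Slc30a1 were both above the floor in 3 cells, Mt1 alone in 6, Slc30a1 alone in 8 and neither in 3. The 3 cells with the most Mt1 (cells 5, 15 and 12, at 12.68, 11.98 and 11.39) had this Slc30a1 probe set at the lowest value possible. The second Slc30a1 probe set exceeded the floor in 9 cells, among them cells 9, 12 and 18, where the brightest did not, so the counts above depend on the probe set. It correlated with the first with r = 0.26, and had rho = -0.32 with Mt1. Without cell 19 the second probe set became the brighter one, and rho with Mt1 was -0.36 over the 13 cells of its larger cluster.

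**Figure D3:**
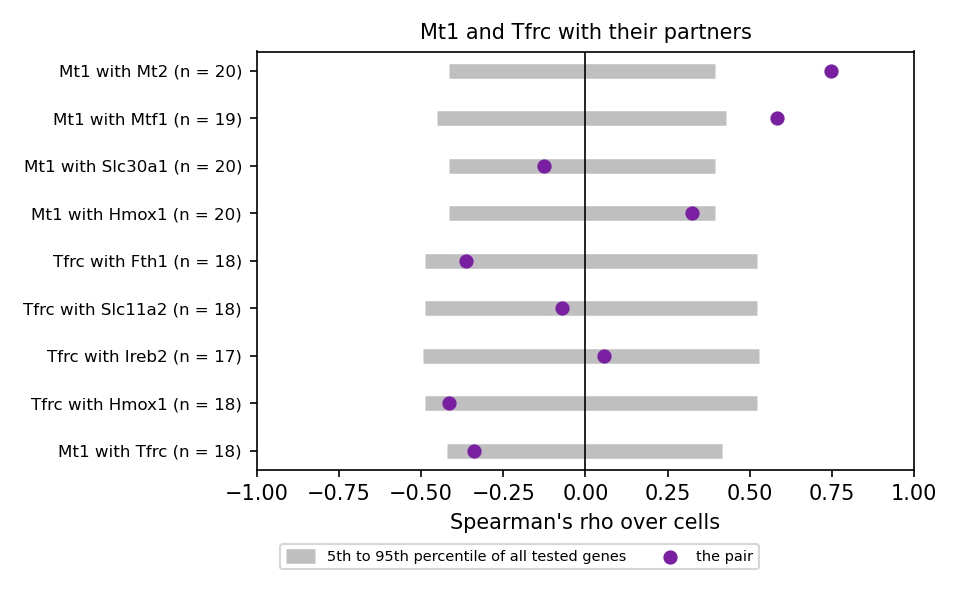
Spearman's rho over cells (horizontal axis) between Mt1 or Tfrc and each partner gene (purple points, one pair per row, n cells in brackets), with a grey bar from the 5th to the 95th percentile of the rho of the first gene with all tested genes over the same cells. Mt1 with Mt2 (0.75) and Mt1 with Mtf1 (0.58) lie beyond their bars, and the 7 other pairs, of which those with Hmox1 rest on values at background, lie inside.

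Tfrc, the receptor that takes up transferrin-bound iron, was high in 18 cells and at the bottom of the scale in the other 2. Its level was 3.29 at the lowest (cell 5), 11.52 at the median and 12.29 at the highest (cell 18). Cell 11 was at 3.70, and the next lowest cell, cell 15, was at 9.06, with a gap of 0.60 of the whole range between them. Its SD was 2.56, rank 287 of 9391, and the ratio of its variance to that of genes of like level ranked 7th. Cells 5 and 11, both primitive endoderm-like, had Mt1 at 12.68 and 10.74. Over all 20 cells the levels of Mt1 and Tfrc had r = -0.55 and rho = -0.49. The 5th percentile of the rho of Mt1 with all tested genes was -0.42 there. Over the 18 cells other than 5 and 11, r was -0.34 and rho was -0.34. Without the 2 of these farthest from the Mt1 median r was -0.15. Within the epiblast-like cells rho was -0.61, and within the primitive endoderm-like cells, cells 5 and 11 included, it was -0.42 (10 cells each).

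The Tfrc pattern rests on 1 probe set. A second one exceeded the floor in cells 1, 2, 12 and 13, the other one in 0 cells, and they correlated with the brightest with r = 0.26 and 0.11. The array also carries 3 control probe sets along the Tfrc transcript. The one for its 3′ part was above the floor in cells 12 and 13 and correlated with the second probe set with r = 0.97 and rho = 0.55, the one for its 5′ part in 0 cells, and the one for its middle in 20 cells, at 9.24 ± 0.34 (SD, n = 20), including cells 5 and 11. The middle one correlated with the brightest with r = 0.46 and rho = 0.12 over 20 cells. In every array the control probe sets of Gapdh and Actb read higher in the 3′ part than in the 5′ part. The differences were 1.26 to 4.17 log2 units for Gapdh and 2.76 to 4.26 for Actb. How far this lowers other probe sets, of Tfrc or of the other genes here, was not tested. By the mean of the 3 gene probe sets, the SD of Tfrc was 1.08 in place of 2.56. The relation of Tfrc to epiblast markers given next was read from the brightest probe set only.

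Among the 18 cells the level of Tfrc ran with that of epiblast markers. Its mean level was 11.89 ± 0.34 in epiblast-like cells and 9.18 ± 3.12 in primitive endoderm-like cells (SD, n = 10 each). It was 11.27 at the lowest, 11.91 at the median and 12.29 at the highest in epiblast-like cells, against 3.29, 10.21 and 11.67 in primitive endoderm-like cells, so the upper primitive endoderm-like cells overlapped the lower epiblast-like ones. The difference of 2.70 log2 units was within the larger SD. Without cells 5 and 11, a setting chosen after the values were seen, primitive endoderm-like cells averaged 10.61 ± 0.94 (SD, n = 8), the difference was 1.28, and 2 of the 8 cells lay within the epiblast-like range. The level of Tfrc correlated with the epiblast score, the mean of centred log2 levels of epiblast markers, with r = 0.82 and rho = 0.85 over 18 cells, rank 5 of 9380 genes outside that list. Without the 2 cells farthest from the Tfrc median r was 0.78. Within the 10 epiblast-like cells rho was 0.68, and within the 8 primitive endoderm-like cells with Tfrc above the floor it was 0.57. With the primitive endoderm score rho was -0.66 over 18 cells. Tfrc also had rho = 0.53 with the arrays' trimmed mean intensity over 17 cells, whose part in the result was not tested.

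**Figure D4:**
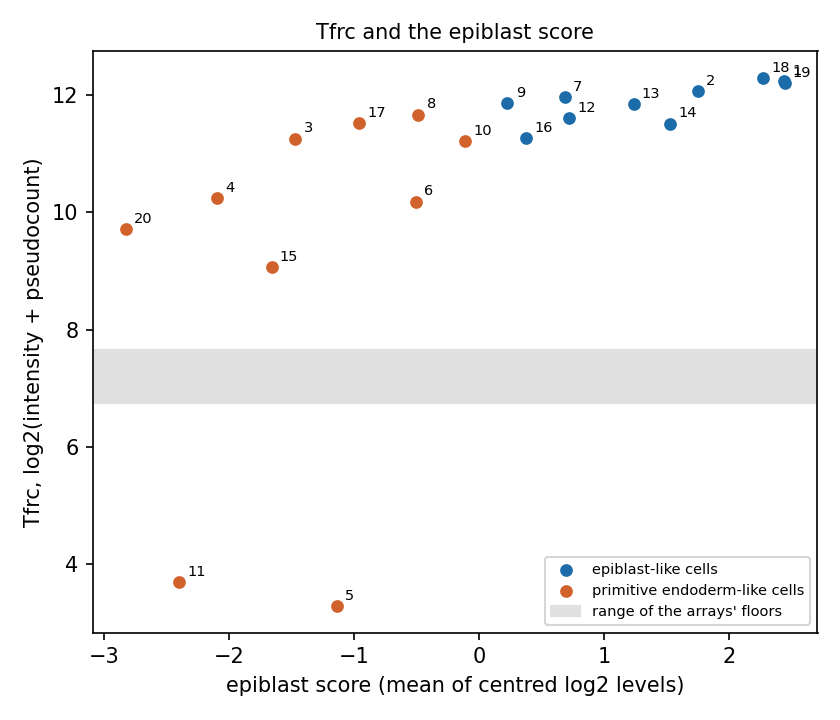
Level of Tfrc (log2(intensity + pseudocount), vertical axis) against the epiblast score (mean of centred log2 levels of epiblast markers, horizontal axis) in 20 numbered cells, epiblast-like in blue and primitive endoderm-like in orange, with a grey band for the range of the arrays' floors. Tfrc is 11.27 or higher in every epiblast-like cell and lies at 3.29 and 3.70 in cells 5 and 11.

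The metallothioneins leaned the other way. Mt1 averaged 6.03 ± 2.52 in epiblast-like cells and 8.56 ± 3.44 in primitive endoderm-like cells (SD, n = 10 each), a difference of -2.54, and was above the floor in 3 and 6 cells. Mt2 averaged 6.82 ± 2.81 in epiblast-like cells and 9.34 ± 2.48 in primitive endoderm-like cells, a difference of -2.52, and was above the floor in 4 and 8 cells. Slc30a1 averaged 6.02 ± 2.55 in epiblast-like cells and 7.31 ± 3.24 in primitive endoderm-like cells, a difference of -1.28 that became 0.58 without cell 19, where the second probe set was the brighter one, and -0.51 with the mean of both probe sets. All of these differences were within the larger SD, and the clusters overlapped in each gene. Of the 8 tested genes, 4 (Mt1, Mt2, Slc30a1 and Tfrc) differed by at least 1 log2 unit between the cluster means, and without cell 19 or with probe sets averaged Slc30a1 was not among them. The share over all tested genes was 19.9%. The levels of Mt1 had rho = -0.36 with the epiblast score, 0.38 with the primitive endoderm score and -0.46 with a score of dissociation and stress genes over 20 cells. With the S phase score rho was -0.11 over 19 cells, and with the share of probe sets above the floor it was -0.01 over 20 cells.

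Of the iron storage and sensing genes, Fth1 varied little by its SD and Ireb2 more. Beside genes of like level the order was the reverse, with 2.65 times their variance for Fth1 and 0.73 times for Ireb2. Fth1, the ferritin heavy chain, was at 12.23 at the lowest (cell 3), 12.69 at the median and 12.93 at the highest (cell 10), with an SD of 0.19, and its second probe set followed with r = 0.87. Ftl1, the ferritin light chain, had no probe set of its own, because its 3 probe sets are annotated also to a pseudogene. These read 11.45 to 12.07, 11.81 to 12.26 and 6.22 to 7.91 over the cells, and were above the floor in 20, 20 and 11 cells. Fth1 also has close copies in the genome, so its probe sets may read more than 1 transcript.

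Ireb2, which encodes an iron regulatory protein, was at 8.71 at the lowest (cell 11), 9.79 at the median and 11.15 at the highest (cell 3), with an SD of 0.57. The level of Tfrc did not follow that of Ireb2 (rho = 0.06, 17 cells) or Slc11a2 (rho = -0.07, 18 cells), and had rho = -0.36 with Fth1 over 18 cells. Its rho with Fth1 was -0.65 within the epiblast-like cells and -0.01 within the primitive endoderm-like cells (10 cells each), and the difference between these values was not tested. Cell 11, with the lowest Ireb2, was one of the 2 cells with Tfrc at the bottom, and the other, cell 5, had Ireb2 at 10.36. The level of Fth1 ran against that of Ireb2 with r = -0.47 and rho = -0.46 over 19 cells, without cell 3, which stood apart in Ireb2. With the second Fth1 probe set rho was -0.36. Within the epiblast-like cells it was -0.43, and within the primitive endoderm-like cells, cell 3 included, -0.70 (10 cells each). Fth1 with Ireb2 was not among the pairs named beforehand. Over the 19 cells, 7.9% of 9390 tested genes had a rho with Fth1 as far from 0, and the 5th percentile was -0.43.

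**Figure D5:**
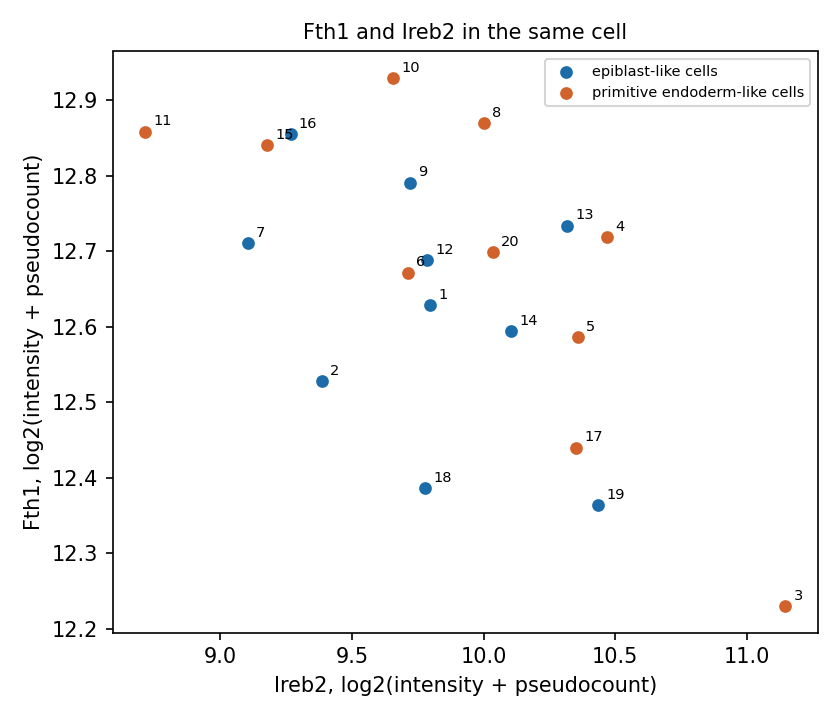
Level of Fth1 (vertical axis) against that of Ireb2 (horizontal axis), both log2(intensity + pseudocount), in 20 numbered cells, epiblast-like in blue and primitive endoderm-like in orange. Cell 3 has the highest Ireb2 (11.15) and the lowest Fth1 (12.23), and the vertical axis spans less than 1 log2 unit.

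Slc11a2, which moves ferrous iron across membranes, was at 4.65 at the lowest (cell 1), 6.71 at the median and 9.20 at the highest (cell 12), near the floor, and above it in 9 cells. Its 3 other probe sets were above the floor in 1, 6 and 5 cells, with r of -0.12, 0.28 and 0.19 with the brightest. Within the epiblast-like cells its level had rho = -0.73 with that of Tfrc, and within the primitive endoderm-like cells rho was 0.39 (10 cells each). Slc11a2 was above the floor in only 5 and 4 of these cells. Its 3 other probe sets had rho of 0.07, 0.42 and 0.03 with Tfrc over 20 cells. Hmox1, which breaks down heme and frees its iron, was 5.24 at the lowest, 6.17 at the median and 7.20 at the highest, and above the floor in cell 15 only, so the rho of each pair with Hmox1 is one of background values in nearly all cells. Of all 36 pairs among the 9 genes, 2 had rho over 0.5 (Mt1 with Mt2, and Mt1 with Mtf1), 0 had rho under -0.5, and 34 lay between. These values rest on 17 to 20 cells, since cells that stood apart were left out. Over all 20 cells Tfrc with Hmox1 had rho = -0.51, so the counts depend on the cells used. The share of gene pairs at large beyond these limits was not computed, so the counts are a description.

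The wider metal and iron genes, 90 in all, were described beside them. Of these, 85 were on the array, 66 were tested, 20 were above the floor in all cells and 17 in none. Of all 18193 genes, 9391 were tested, 2741 were above the floor in all cells and 7220 in none. The variance test called 0 of the 66. An SD of at least 1 was seen in 41 of the 66, beside 55.1% of all tested genes, and their median SD was 1.24, against 1.15 over all tested genes. Their rho with Mt1 ran from -0.56 to 0.66 (median 0.02), and with Tfrc from -0.56 to 0.63 (median -0.06).

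In the zinc group, the importer Slc39a6 had the largest SD (2.41). Mt3, a further metallothionein known mainly from brain, had the smallest (0.23), with a level above the floor in all 20 cells and rho = 0.04 with Mt1. In the copper group, the importer Slc31a1 had an SD of 2.54 and Cox17, a copper chaperone of cytochrome oxidase, 0.15. Among genes of iron transport and sensing, Hamp, the iron hormone hepcidin, had the largest SD (1.79). Of the epiblast-like cells, 5 had Hamp above the floor, and of the primitive endoderm-like cells, 0. Hamp thus counted as tested through the epiblast-like cells alone. The share of all genes with such a split was not computed, so the split is a description. The iron chaperone Pcbp1 had the smallest SD (0.08).

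Among mitochondrial iron and heme genes, the heme exporter Flvcr1 had an SD of 2.67. Cisd1, an iron-sulfur protein of the outer mitochondrial membrane, had 0.50. The level of Cisd1 was 11.67 ± 0.19 in epiblast-like cells and 10.99 ± 0.49 in primitive endoderm-like cells (SD, n = 10 each), and it had rho = 0.63 with Tfrc over 20 cells. Among genes tied to oxidative stress, the glutathione synthesis enzyme gene Gclc had an SD of 1.99 and thioredoxin, Txn1, 0.11.

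Outside the 10 genes, those whose level over the 20 cells was most like that of Mt1, by Spearman's rho, were 1700012B09Rik (0.84), Chmp2b (0.78), Arhgap12 (0.77), Mcrip1 (0.74) and Havcr1 (0.72). Chmp2b, a subunit of the membrane-cutting ESCRT complex, ran from 3.30 to 10.96 and was above the floor in 14 cells. Havcr1, a receptor for phosphatidylserine, ran from 3.29 to 12.21 and was above the floor in 16. 1700012B09Rik ran only from 6.71 to 7.74, within or beside the floor. Those most like Tfrc were Prkag3 (0.85), Rhpn2 (0.84), Cyp2s1 (0.83), Dnaja1 (0.83) and Arhgef19 (0.82). Dnaja1, a co-chaperone, was above the floor in 20 cells, and Cyp2s1, a cytochrome P450, in 17. Prkag3 and Arhgef19 were above it in 3 cells each.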

How the data were processed

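The authors deposited a linear intensity for each probe set of 20 Affymetrix arrays, between 1 and 26616. Per the labels' protocols, each array held biotin-labelled cRNA made from the PCR-amplified cDNA of 1 cell. The software for probe set summary, background and scaling is not given in the sources used here. PCR amplification from 1 cell can lose or overstate single transcripts, and no replicate of a cell measures that error.

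Of 45101 probe sets, 64 were controls. By GEO's platform annotation 34945 others had 1 gene, 932 had several and were left unnamed, and 9160 had none. Of those with 1 gene, 34741 matched the RefSeq table (GRCm38.p6). Trimmed means (2% trim) of 182.5 to 221.2, over 5% apart, led to quantile normalization. The pseudocount was the 25th percentile of an array, taken at its median over arrays. Tested genes exceeded the floor in 3 or more cells.

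The variance test used squeezeVar of limma 3.58.1 with a trend on the mean level, in R 4.3.3, and Benjamini-Hochberg adjustment. Where the widest gap of a gene or measure exceeded 0.25 of its range, correlations used the larger cluster of cells; within-cluster values and those of single probe sets, the wider list and the most similar genes used all cells. Cells were clustered by Ward's method (scipy 1.17.1) into 2 clusters. Steps were tested on simulated data. The genes and lists were chosen with earlier results of these data known. Named genes were the 10 genes, the 5 most like Mt1 and Tfrc by rho, and the largest and smallest SD of each wider group. Alternatives were the deposited scaling, another pseudocount, values raised to the floor, all probe sets averaged, no filter, 1000 clustering genes, and leaving out cell 19 or, chosen after seeing the data, cells 5 and 11. Pairs of arrays sharing most values numbered 0.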

Additional observations from a re-analysis of the deposited data

How the results depend on the processing

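Of 160 alternative values, 139 stayed within the limits set for the result, 20 moved and 1 reversed. These limits let some values change sign. With the mean of all probe sets, the cluster difference of Mtf1 went from -0.126 to 0.007 and that of Slc11a2 from 0.26 to -0.07. The rho of Mt1 with Mt2 was -0.073 with the mean of all probe sets, because Mt1 then falls into separate clusters and only its 11 low cells enter. Over all 20 cells, an alternative chosen after seeing the data, it stayed within the limits. With values raised to the floor that rho was 0.88, the SD of Mt1 was 2.01 and that of Tfrc 1.53. With the mean of all probe sets, in the 11 low cells of Mt1, its rho with Tfrc was 0.44, against -0.34. Its rho with Mtf1 was then 0.10, against 0.58. The SD of Tfrc was 1.08 with the mean of all probe sets and 3.10 with the 10th-percentile pseudocount. The cluster differences of Mt1 and Tfrc kept their sign in every alternative run, and that of Slc30a1 changed sign, within its SD, without cell 19 (0.58). The variance test's count was 0 in every alternative run. No paired analysis was possible because all cells form 1 group. The number of arrays, the floor and the amplification of single cells limit the precision. A gene below the floor in a cell may be absent, too dim for its probe set or lost in amplification, and these cannot be told apart here. Tfrc and Mtf1 are each read from 1 bright probe set.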

Other observations

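Beyond the zinc and iron genes named above, Aco1, which encodes the other iron regulatory protein, was above the floor in all 20 cells, with a level of 9.75 at the lowest, 11.68 at the median and 12.49 at the highest. Its rho with Tfrc was -0.53 and with Mt1 0.43 over 20 cells. Slc40a1, the iron exporter ferroportin, was above the floor in 0 cells, with a highest level of 5.34. The zinc exporter Slc30a2 exceeded the floor in 4 of the epiblast-like cells and 0 of the others, and had rho = -0.56 with Mt1 over 20 cells. Like Hamp, Slc30a2 counted as tested through the epiblast-like cells alone, so its split is a description. Slc30a4, a further zinc transporter, averaged 9.08 ± 0.91 in epiblast-like cells and 9.96 ± 0.65 in primitive endoderm-like cells (SD, n = 10 each), with rho = -0.56 with Tfrc. These 4 genes were chosen after their values were seen.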
